A study of Mus musculus with 12 samples.

Results

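RNA held by the ribosomes of cholinergic cells was compared with RNA held by the ribosomes of neurons in general in the mouse spinal cord. The comparison sets 3 libraries called TRAP_Chat against 3 called TRAP_Snap25, chosen by their titles, which are 6 of the 12 libraries of the series, and it covers all genes of the deposited count table. All libraries came from spinal cord at postnatal day 21. TRAP_Chat was made from Tg(Chat-EGFP/Rpl10a)DW167Htz mice and TRAP_Snap25 from Tg(Snap25-EGFP/Rpl10a)JD362Jdd mice, and both lines carry a tagged copy of the ribosomal protein Rpl10a fused to EGFP. In each line the tag is driven by sequences of the gene in its name, so ribosomes of the cells that use those sequences can be pulled down together with the messenger RNA they are reading (translating ribosome affinity purification, TRAP). Each pulldown lasted 4 h at 4 °C. The other 6 libraries, PreIP_Chat and PreIP_Snap25 with 3 each, are the inputs, taken before the pulldown from the same lines, and are used here as the background of the lines.

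Motor neurons of the spinal cord send their axons out to muscle and release acetylcholine there, which sets them apart from the GABAergic, glycinergic and glutamatergic interneurons around them. They arise under the transcription factors Mnx1, Isl1 and Lhx3, and as adults they are large cells with thick axons rich in neurofilaments. Chat is also used by cholinergic interneurons and by autonomic preganglionic neurons, so the Chat line marks cholinergic cells and not motor neurons alone, while Snap25, a protein of vesicle fusion, is used by nearly all neurons. Motor neurons are therefore also among the cells that the Snap25 line marks, and each difference below is one between cholinergic cells and a mixture that includes them. In such bulk samples fewer cells of a type and less RNA per cell cannot be told apart.

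Between 10149346 and 16504397 reads were counted to genes in each pulldown, so that a count of 3 stood for 0.182 to 0.296 CPM, the count scaled to a library of fixed size, a limit that covers counting error only. Of all genes, 14111 had enough counts to be tested. Yam1, a gene that collects ribosomal RNA reads, took 18.1% of TRAP_Chat replicate 2 and 16.9% of TRAP_Snap25 replicate 3, against 5.07% to 9.11% of the other pulldowns. Reads of the mitochondrial genome made up 6.94% of TRAP_Chat replicate 1 against 0.225% to 0.721% of the other 5 pulldowns, and oligodendrocyte RNA was highest in that library and in TRAP_Snap25 replicate 3. Many, though not all, of the results that change without these libraries are given both ways. Whether each replicate was a separate animal or a pool is not stated in the labels, and a p-value here reflects only how far these libraries vary. Levels are CPM scaled by TMM, a factor per library from the bulk of genes. Differences are log2 values of TRAP_Chat minus TRAP_Snap25 with their standard error, from edgeR's quasi-likelihood test on the 6 pulldowns, and a gene is called where the Benjamini-Hochberg adjusted p over all tested genes is under 0.05. A gene that kept its call did so under all 19 other ways of running the test, which include leaving out each library in turn.

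The genes that give the lines their names were checked first. Chat, the enzyme that makes acetylcholine, stood at 106, 185 and 187 CPM in TRAP_Chat replicates 1 to 3 and at 19.97, 26.1 and 28.9 CPM in TRAP_Snap25. All Chat pulldowns lay above all Snap25 pulldowns, and the log2 difference was 2.65 ± 0.31 (SE, n = 3 per group, edgeR adjusted p = 0.00131). Snap25 stood at 6364, 7504 and 10700 CPM in TRAP_Chat and at 16520, 14970 and 15560 CPM in TRAP_Snap25. Its libraries did not overlap either, but the log2 difference of -0.96 ± 0.30 (SE) did not pass (edgeR adjusted p = 0.12). DESeq2 and limma voom called it, with adjusted p = 0.0116 and 0.0243, as did edgeR with all 12 libraries in the fit (adjusted p = 0.0394). In the inputs Snap25 had a log2 difference of -0.61 (edgeR adjusted p = 0.997). Rpl10a, whose tagged copy both lines carry, was counted at 2.72 to 7.93 CPM in the pulldowns and did not pass (edgeR adjusted p = 0.687).

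Of the genes tested, 237 were higher and 145 lower in TRAP_Chat, 382 in all or 2.71%, with 1.68% higher and 1.03% lower (edgeR). Every called gene differed over 2-fold, and 109 and 64 of them differed over 4-fold. For all 382 the 2 groups did not overlap, which held for 21.0% of all tested genes. The median log2 difference over all tested genes was -0.02, and 2084 genes had an unadjusted p under 0.05. Leaving out 1 library moved the counts, from 87 higher and 45 lower without TRAP_Chat replicate 3 to 366 and 198 without TRAP_Snap25 replicate 3. Without TRAP_Snap25 replicate 1 there were 100 and 75, without TRAP_Snap25 replicate 2 there were 134 and 101, without TRAP_Chat replicate 2 there were 116 and 57, and without both TRAP_Chat replicate 1 and TRAP_Snap25 replicate 3 there were 396 and 203. With all 12 libraries in the fit edgeR gave 632 higher and 441 lower. The spread between replicates then includes that of the inputs, whose biological coefficients of variation were 0.209 and 0.270 against 0.428 in TRAP_Chat and 0.456 in TRAP_Snap25. The shares of 1.68% and 1.03% are the background for the counts of each gene list below. The lists were written with earlier results of these data known, so the comparison with these shares is description only.

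**Figure D1:**
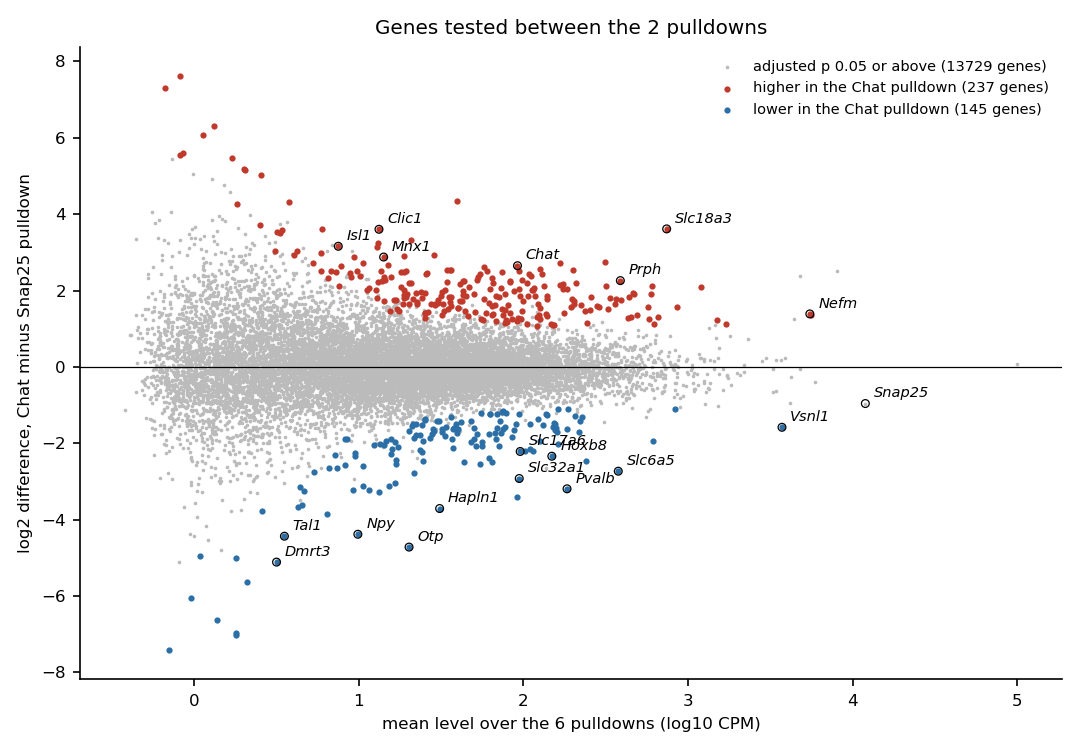
Each point is 1 of 14111 tested genes, with its mean level over the 6 pulldowns in log10 CPM on the x axis and its log2 difference, TRAP_Chat minus TRAP_Snap25, on the y axis. The 237 genes called higher are red, the 145 called lower are blue, and the labelled genes are among those described in the text.

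Genes that make, move and break down acetylcholine were higher in TRAP_Chat. Of 9 such genes tested 5 were called, all higher in TRAP_Chat, and the median log2 difference of the list was 1.55. Slc18a3, which loads acetylcholine into vesicles, stood at 911, 1659 and 1550 CPM in TRAP_Chat and at 74.1, 35.4 and 222 CPM in TRAP_Snap25. The log2 difference of 3.61 ± 0.55 (SE, edgeR adjusted p = 0.0025) was the largest rise among the named genes. It was 4.65 without TRAP_Snap25 replicate 3, the library that held the most Slc18a3 in its group, and 4.88 without TRAP_Chat replicate 1 as well. Before the pulldown Slc18a3 already stood at 183 CPM in PreIP_Chat and 50.6 CPM in PreIP_Snap25 (log2 difference 1.83, edgeR adjusted p = 0.0815). Slc5a7, which takes choline back into the terminal, was at 200, 428 and 245 CPM against 49.1, 38.1 and 43.1 CPM, a log2 difference of 2.72 ± 0.32 (SE, edgeR adjusted p = 0.00131). Prima1, which anchors acetylcholinesterase to the membrane, was at 66.7, 71.6 and 75.8 CPM against 12.6, 12.99 and 18.7 CPM and had a log2 difference of 2.25. Acly, which makes the acetyl-CoA used for synthesis, had a log2 difference of 1.55 and did not pass without TRAP_Chat replicate 2 (edgeR adjusted p = 0.0546). Ache itself, the esterase, stood at 156 ± 39.3 CPM and 116 ± 68.5 CPM (SD, n = 3), groups that overlapped, and did not pass (edgeR adjusted p = 0.698).

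Slc18a3 and Chat share a locus. In RefSeq's annotation of GRCm38.p6 the start of Slc18a3 lies 1059 bases after that of Chat, on the same strand of chromosome 14 and within the span of Chat, so reads over their shared stretch cannot be assigned with certainty. The 250 bases before the start of each are printed 5′ to 3′ on the strand of the gene, with those of the motor neuron factors Isl1 and Mnx1, because these 4 genes were higher in every Chat pulldown than in any Snap25 pulldown. Capitals mark TGACG, the core of cAMP response elements, or TAATTG, a core bound by homeodomain proteins, on either strand. The windows are chr14:32465910-32466159 for Chat, chr14:32464851-32465100 for Slc18a3, chr13:116309689-116309938 for Isl1 and chr5:29478471-29478720 for Mnx1, all on the minus strand of GRCm38.p6.
Chat: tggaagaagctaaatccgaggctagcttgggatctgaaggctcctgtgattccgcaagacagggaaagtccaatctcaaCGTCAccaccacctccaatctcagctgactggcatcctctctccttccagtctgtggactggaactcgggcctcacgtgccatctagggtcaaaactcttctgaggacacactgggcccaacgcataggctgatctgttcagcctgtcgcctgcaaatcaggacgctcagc
Slc18a3: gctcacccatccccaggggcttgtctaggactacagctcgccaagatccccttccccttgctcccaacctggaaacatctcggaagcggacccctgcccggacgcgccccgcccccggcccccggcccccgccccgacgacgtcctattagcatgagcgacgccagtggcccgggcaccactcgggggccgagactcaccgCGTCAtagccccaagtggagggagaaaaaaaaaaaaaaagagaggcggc
Isl1: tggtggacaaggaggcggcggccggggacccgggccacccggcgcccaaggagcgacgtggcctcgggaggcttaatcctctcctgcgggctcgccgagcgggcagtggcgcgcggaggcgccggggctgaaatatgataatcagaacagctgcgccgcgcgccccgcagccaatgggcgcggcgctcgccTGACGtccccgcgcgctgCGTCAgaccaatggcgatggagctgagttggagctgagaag
Mnx1: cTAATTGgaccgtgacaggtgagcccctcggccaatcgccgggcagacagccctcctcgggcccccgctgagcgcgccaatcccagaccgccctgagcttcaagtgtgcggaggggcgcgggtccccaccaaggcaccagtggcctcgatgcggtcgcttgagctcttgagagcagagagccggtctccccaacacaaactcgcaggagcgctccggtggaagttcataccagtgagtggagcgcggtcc

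TGACG was searched on both strands and was found once in the windows of Chat and Slc18a3 and 2 times in that of Isl1. It was in 17.9% of the 27025 promoters of this length in the table, in 27.3% of the 10323 promoters whose genes were tested here and matched by symbol, in 21.1% of 175 called higher and in 18.7% of 107 called lower. TAATTG, searched in the same way, was found once in the window of Mnx1. Its shares of the same promoters were 7.34%, 4.23%, 8% and 2.80%. The related core TAATTA, whose matches can overlap those of the former, was not found in these windows. Its shares were 4.90%, 2.24%, 2.86% and 1.87%. A match describes the letters and not a bound site.

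Transcription factors listed for motor neurons were higher in TRAP_Chat where they were called. Of 16 tested 6 were called, all of them higher, with a median log2 difference of 1.15. Isl1, which directs motor neuron fate, was at 12.7, 13.7 and 14.2 CPM in TRAP_Chat and at 1.91, 2.06 and 0.406 CPM in TRAP_Snap25, with no overlap. Its log2 difference was 3.16 ± 0.60 (SE, edgeR adjusted p = 0.0106), and the adjusted p was 0.0761 without TRAP_Chat replicate 3. Mnx1, which holds motor neurons apart from interneurons, was at 24.9, 22.04 and 27.98 CPM against 5.65, 1.95 and 2.44 CPM. Its log2 difference was 2.88 ± 0.47 (SE, edgeR adjusted p = 0.004), and 3.49 without TRAP_Snap25 replicate 1. Creb5, Lhx4, Bcl6 and Isl2 had log2 differences of 2.50, 2.28, 2.02 and 2.01. Creb5 stood at 32.1 ± 13.2 CPM in TRAP_Chat and 5.56 ± 2.72 CPM in TRAP_Snap25 (SD), against 29.7 CPM in PreIP_Chat and 29.8 CPM in PreIP_Snap25. Bcl6, a transcriptional repressor, kept its call, whereas Creb5 lost it without TRAP_Chat replicate 2 (edgeR adjusted p = 0.0775). Isl2 and Lhx4 lost theirs without TRAP_Chat replicate 2 or 3 or without TRAP_Snap25 replicate 1 (edgeR adjusted p from 0.0801 to 0.189), and Lhx4 also without TRAP_Snap25 replicate 2 (edgeR adjusted p = 0.0859). The list count was accordingly 3 without TRAP_Chat replicate 2 or 3 and 4 without TRAP_Snap25 replicate 1. Lhx3, the partner of Isl1 in early motor neurons, was at 6.42, 6.57 and 9.93 CPM against 2.06, 2.23 and 3.96 CPM and did not pass (edgeR adjusted p = 0.229). Foxp1, a factor of limb-innervating motor neurons, overlapped between the groups at 21.4 ± 4.78 and 23.9 ± 10.7 CPM (SD), as did Esrrg, a factor of gamma motor neurons, at 206 ± 17.99 and 191 ± 74.0 CPM.

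Peptide genes of motor neurons were higher as well, 6 of 17 tested, with a median log2 difference of 1.03. Uts2, which encodes the vasoactive peptide urotensin 2, was at 130, 175 and 72.04 CPM against 21.1, 28.7 and 16.5 CPM (log2 difference 2.48 ± 0.36, SE, edgeR adjusted p = 0.00201). Its paralog Uts2b was lower in level, at 27.5, 23.6 and 28.2 CPM against 6.53, 4.46 and 4.27 CPM, with a log2 difference of 2.35. Cartpt, the precursor of CART peptides, was at 267, 180 and 205 CPM against 28.6, 46.0 and 35.0 CPM (log2 difference 2.55 ± 0.30, SE, edgeR adjusted p = 0.00131). In each of these 3 genes the lowest Chat pulldown lay above the highest Snap25 pulldown. Calca and Calcb, which encode the calcitonin gene-related peptides of motor terminals, had log2 differences of 2.04 and 2.05, and Nrg1, a growth factor of muscle spindles and Schwann cells, had 1.83 at 405 ± 90.2 against 112 ± 17.1 CPM (SD). All 6 kept their calls. The granin genes Scg2, Chgb and Chga, which package peptides in many neurons, had log2 differences of -1.02, -0.69 and -0.50 and did not pass.

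Markers of motor neuron subtypes passed in part, 4 of 18 higher, with a median log2 difference of 0.79. Chodl, a marker of fast motor neurons, was at 106, 108 and 112 CPM against 24.8, 23.7 and 14.7 CPM, a log2 difference of 2.34 ± 0.30 (SE, edgeR adjusted p = 0.00131). Vipr2, a receptor of vasoactive intestinal peptide, was at 88.3, 112 and 98.7 CPM against 8.07, 21.7 and 17.99 CPM, a log2 difference of 2.62. Both kept their calls and neither overlapped. Wnt7a (2.52) and Gfra1 (1.41), a receptor for glial cell line-derived neurotrophic factor, lost theirs without TRAP_Chat replicate 2 or 3 or TRAP_Snap25 replicate 1 or 2 (edgeR adjusted p from 0.123 to 0.197), so that 2 remained without each of these, and 6 were called without TRAP_Snap25 replicate 3, where the log2 difference of Wnt7a was 3.17. Mmp9, a marker of fast motor neurons prone to degeneration, stood at 30.5 ± 3.37 against 11.9 ± 9.05 CPM (SD) and did not pass (edgeR adjusted p = 0.174), and Esrrb, a marker of gamma motor neurons, stood at 22.9 ± 2.56 against 12.9 ± 0.832 CPM (edgeR adjusted p = 0.278). Of 10 markers of other cholinergic neurons Slc10a4, a transporter in cholinergic vesicles, was higher, at 196, 257 and 208 CPM against 36.9, 38.4 and 44.9 CPM (log2 difference 2.44 ± 0.27, SE, edgeR adjusted p = 0.00131). Mpped2 was lower (log2 difference -1.898) and did not pass without TRAP_Chat replicate 2 or 3 or TRAP_Snap25 replicate 1 or 2 (edgeR adjusted p from 0.122 to 0.185). Nos1, an enzyme of preganglionic neurons, had a log2 difference of 0.83 at 113 against 62.3 CPM and did not pass.

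**Figure D2:**
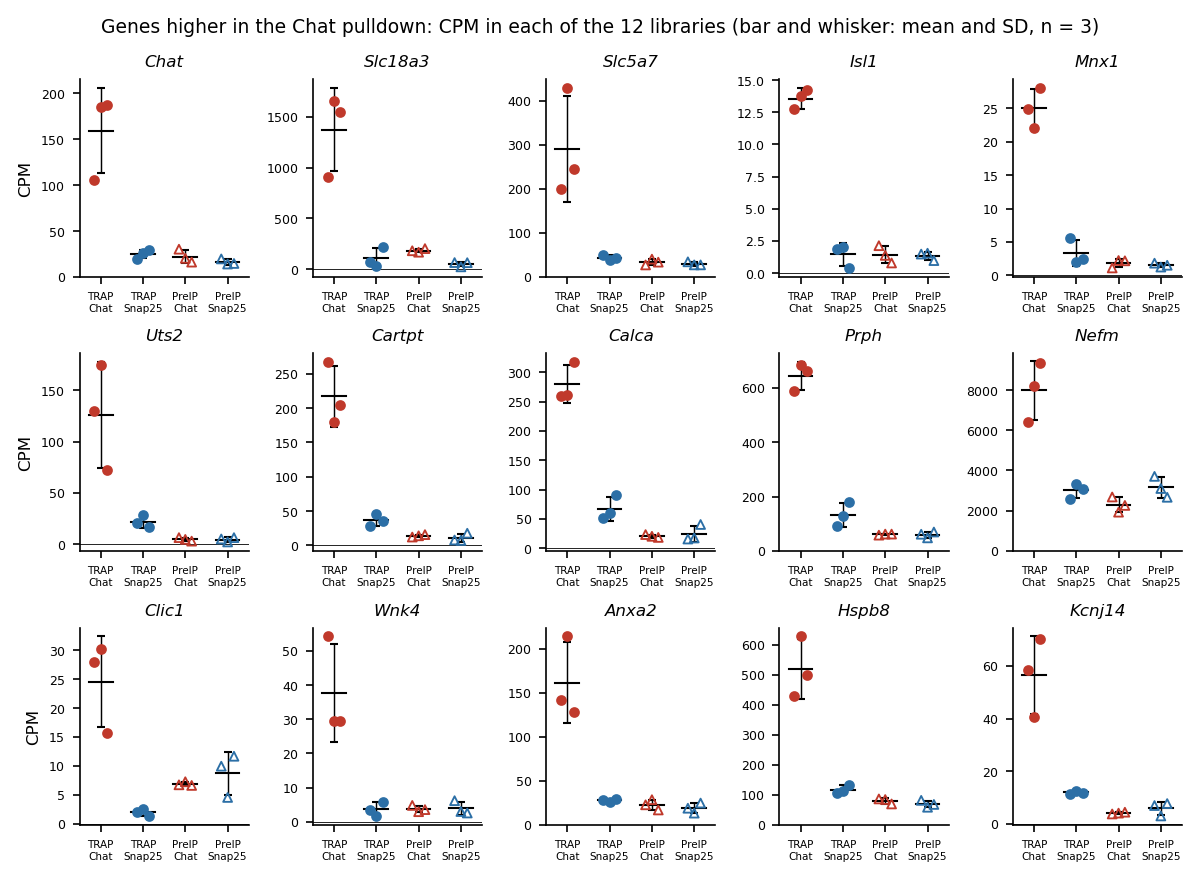
Panels show 15 genes higher in TRAP_Chat, with the level in CPM on a linear y axis and the 4 groups on the x axis; circles are pulldowns, triangles are inputs, and the bar and whisker are the mean and SD of 3 libraries. The Chat pulldowns lie above all other libraries in every panel, and for Slc18a3 the inputs also stand apart, at 183 CPM in PreIP_Chat and 50.6 CPM in PreIP_Snap25.

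Genes of inhibitory neurons were lower in TRAP_Chat. Of 22 genes of GABAergic and glycinergic neurons 9 were called, all lower, 21 had a negative log2 difference, and the median was -1.97. Leaving out any 1 library left 8 or 9 called. Slc32a1, which loads GABA and glycine into vesicles, was at 30.0, 9.96 and 26.7 CPM in TRAP_Chat and at 156, 93.2 and 250 CPM in TRAP_Snap25, with no overlap. Its log2 difference was -2.92 ± 0.44 (SE, edgeR adjusted p = 0.00248). Slc6a5, which takes up glycine at inhibitory terminals, was at 101, 61.6 and 137 CPM against 855, 533 and 575 CPM (log2 difference -2.73 ± 0.34, SE, edgeR adjusted p = 0.00131). The GABA-making enzymes Gad1 and Gad2 were lower by a smaller amount, with log2 differences of -1.71 and -1.73. Gad2 kept its call, and Gad1 lost it without TRAP_Chat replicate 3 (edgeR adjusted p = 0.0722) and without TRAP_Snap25 replicate 1 (0.0547).

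Peptides, calcium buffers and regulators of inhibitory neurons followed. Npy, which encodes neuropeptide Y, had 25, 2 and 19 counts in TRAP_Chat, or 1.54, 0.151 and 0.988 CPM, and 13.2, 30.3 and 13.1 CPM in TRAP_Snap25 (log2 difference -4.38 ± 0.69, SE, edgeR adjusted p = 0.003). Without TRAP_Chat replicate 1 and TRAP_Snap25 replicate 3 it was -5.16. Pvalb, the calcium buffer parvalbumin of fast-firing neurons, was at 62.0, 21.3 and 26.9 CPM against 410, 312 and 273 CPM (log2 difference -3.19 ± 0.40, SE, edgeR adjusted p = 0.00131), and -3.78 without TRAP_Chat replicate 1, which held the most of it in its group. Pax2, a factor that specifies inhibitory interneurons, had a log2 difference of -2.49, or -3.10 without TRAP_Chat replicate 3, and Rgs8, a brake on G protein signals, -2.48. These 4 genes kept their calls and none overlapped between the groups. Penk, the precursor of enkephalins, had a log2 difference of -1.29 at 121 ± 10.2 against 293 ± 75.4 CPM (SD) and lost its call without any 1 of the Chat pulldowns (edgeR adjusted p from 0.063 to 0.128). The peptide genes Pdyn and Pnoc, at log2 differences of -0.02 and -0.13, did not pass.

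Of genes of glutamatergic interneurons 2 of 23 were lower and 1 higher, with a median log2 difference of -0.97. Slc17a6, the vesicular glutamate transporter of most spinal excitatory neurons, was at 28.3, 42.7 and 32.0 CPM in TRAP_Chat and at 187, 155 and 129 CPM in TRAP_Snap25, with no overlap (log2 difference -2.21 ± 0.29, SE, edgeR adjusted p = 0.00136). The other called lower was Trh, the precursor of a releasing hormone, outside the naming rule, with 0, 0 and 1 counts against 10, 25 and 60. It lost its call in 6 of 18 alternatives, without any 1 of the Chat pulldowns among them (edgeR adjusted p from 0.0755 to 0.115). Slc17a7, the transporter of large sensory afferents and corticospinal axons, was at 0.585 ± 0.0836 against 4.24 ± 1.10 CPM (SD) and did not pass (edgeR adjusted p = 0.0654). Nts, the precursor of neurotensin, went the other way, at 43.0, 23.2 and 37.3 CPM against 12.5, 8.98 and 11.4 CPM (log2 difference 1.64). Nts lost its call without TRAP_Chat replicate 1 or 3 or TRAP_Snap25 replicate 1 or 2 (edgeR adjusted p from 0.0806 to 0.133). Sst, Cck and Tac2, peptide genes of dorsal horn neurons, had log2 differences of -0.45, -0.31 and -0.73 and did not pass.

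Transcription factors that define classes of interneurons were also lower in part. Of 26 such factors tested 5 were lower and 2 higher, with a median log2 difference of -0.86. Dmrt3, a factor of commissural inhibitory interneurons that coordinate gait, had 0, 1 and 8 counts in TRAP_Chat and 79, 86 and 78 counts in TRAP_Snap25, which is at most 0.416 CPM against 4.80 to 7.93 CPM (log2 difference -5.11 ± 1.005, SE, edgeR adjusted p = 0.0131). Tal1, a factor of V2b interneurons, had 6, 4 and 5 counts against 88, 177 and 39 (log2 difference -4.43 ± 0.75, SE, edgeR adjusted p = 0.00536). Otp, a homeodomain factor of dorsal and ventral interneurons, was at 0.803, 0.151 and 3.38 CPM against 14.2, 15.7 and 87.1 CPM, so that TRAP_Snap25 replicate 3 stood far above its group. Its log2 difference was -4.72 ± 0.90 (SE, edgeR adjusted p = 0.0109), -3.34 without that library and -6.30 without TRAP_Chat replicate 3. It did not pass once TRAP_Chat replicate 1 was left out too (-3.04, edgeR adjusted p = 0.0805) or with limma voom (0.0544). En1, the factor of V1 interneurons, was chosen after its values were seen. It was at 0.988, 0.528 and 0.364 CPM against 6.97, 7.31 and 9.45 CPM, with no overlap.

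Some of these calls, at low counts, were lost without 1 library. Dmrt3 lost its call without TRAP_Snap25 replicate 1 (edgeR adjusted p = 0.054) or TRAP_Chat replicate 2 (0.067), and its log2 difference was -7.17 without TRAP_Chat replicate 3, which held 8 of its 9 counts in that group. Tal1 and En1 lost theirs without TRAP_Chat replicate 3 (edgeR adjusted p = 0.0522 and 0.0713). The list count of lower genes was 3 without TRAP_Snap25 replicate 1, TRAP_Chat replicate 2 or TRAP_Chat replicate 3. Nfia and Nfib, nuclear factors of late-born neurons and of glia, were the 2 that were higher. They stood at 200 ± 49.1 against 75.7 ± 13.6 CPM and at 59.6 ± 16.7 against 20.2 ± 6.20 CPM (SD), and both lost their calls without TRAP_Chat replicate 2 or 3 or TRAP_Snap25 replicate 1 (edgeR adjusted p from 0.0642 to 0.157), Nfia also without TRAP_Snap25 replicate 2 (0.052).

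Genes of the Hox clusters, which give neurons their position along the cord, were lower where they were called, 5 of 32, with a median log2 difference of -0.87. Hoxb8 was at 55.1, 59.8 and 34.4 CPM in TRAP_Chat and at 251, 212 and 280 CPM in TRAP_Snap25 (log2 difference -2.34 ± 0.29, SE, edgeR adjusted p = 0.00131). Hoxb9 was at 30.3, 22.9 and 12.4 CPM against 108, 94.0 and 69.1 CPM (log2 difference -2.07 ± 0.36, SE, edgeR adjusted p = 0.0057). Both kept their calls, and neither overlapped between the groups. The others called were Hoxa10 (-1.93), Hoxb7 (-1.50) and Hoxa9 (-1.42), which lost their calls without TRAP_Chat replicate 3 (edgeR adjusted p from 0.0747 to 0.204). Hoxb7 lost its call in 6 of 19 alternatives and Hoxa9 in 5. The list count was 3 without TRAP_Snap25 replicate 1 or 2 or TRAP_Chat replicate 2, and 2 without TRAP_Chat replicate 3. All 5 belong to paralog groups 7 to 10, of which 12 genes were tested, a grouping made after the values were seen. Of those 12, 11 had a negative log2 difference, with a median of -0.63. Groups 11 to 13 had 0 of 6 called in edgeR, but all 6 were negative, with a median of -1.55. Among them Hoxa11 (-3.00, edgeR adjusted p = 0.109) passed with DESeq2 (adjusted p = 0.0161). Hoxc12 (-2.09, edgeR adjusted p = 0.177) passed with limma voom (adjusted p = 0.0393). Groups 1 to 6 had 0 of 14 called in the main edgeR fit, 11 of them negative, with a median of -0.79. Hoxc5 in these groups went the other way, with a log2 difference of 1.66 (edgeR adjusted p = 0.0977). It was called higher in 5 of 19 alternatives, DESeq2 among them (adjusted p = 0.0157). Hoxb5 (-0.89, edgeR adjusted p = 0.0976) and Hoxb6 (-1.16, edgeR adjusted p = 0.129) passed as lower with DESeq2 (adjusted p = 0.027 and 0.0446). Other members of groups 7 to 10 stood level between the pulldowns, with log2 differences of -0.05 for Hoxa7, -0.08 for Hoxd9 and 0.27 for Hoxc8.

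**Figure D3:**
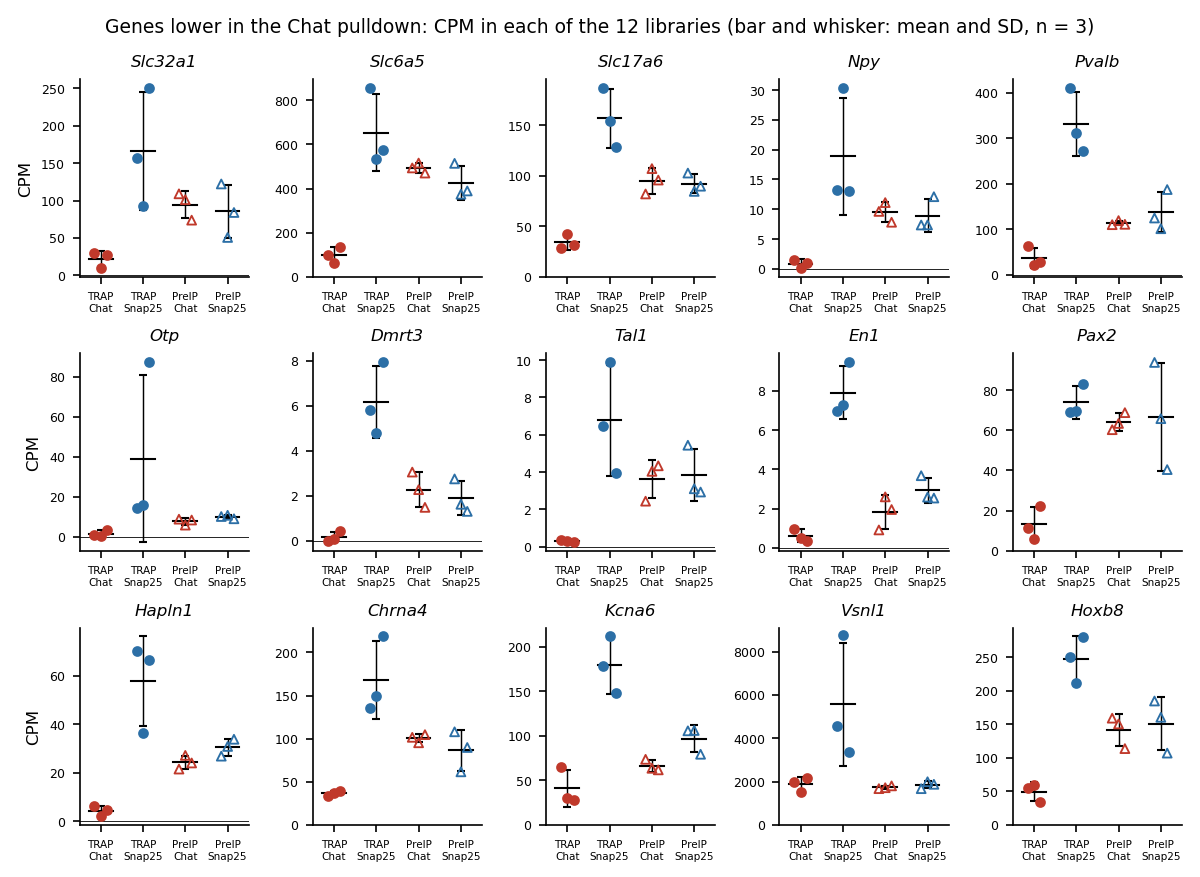
Panels show 15 genes lower in TRAP_Chat, drawn as CPM on a linear y axis by group, with circles for pulldowns, triangles for inputs, and the mean and SD of 3 libraries as bar and whisker. Every Chat pulldown lies below every Snap25 pulldown, and the high point of Otp, at 87.1 CPM, is TRAP_Snap25 replicate 3.

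Genes that neurons in general use were lower in 4 of 26 cases and higher in none, with a median log2 difference of -0.43. Scg5, a chaperone of prohormone processing, was at 48.2, 43.0 and 67.7 CPM against 177, 196 and 227 CPM (log2 difference -1.94 ± 0.28, SE, edgeR adjusted p = 0.00195). Nsg2, a protein of neuronal endosomes, was at 106, 70.3 and 135 CPM against 296, 333 and 371 CPM (log2 difference -1.70). Both kept their calls. Nrgn, a postsynaptic calmodulin-binding protein, and Vsnl1, the calcium sensor visinin-like 1, had log2 differences of -2.33 and -1.58, and each lost its call without TRAP_Chat replicate 2 or 3 or TRAP_Snap25 replicate 1 (edgeR adjusted p from 0.0604 to 0.175). Vsnl1 stood at 1994, 1508 and 2145 CPM against 4579, 8746 and 3353 CPM, with TRAP_Snap25 replicate 2 the highest. The list count was 2 without each of those libraries and 3 without any other 1 library. The neuronal nuclear protein Rbfox3, at 356 ± 99.3 and 332 ± 103 CPM (SD), and the vesicle calcium sensor Syt1, at 61.7 ± 18.03 and 87.5 ± 29.7 CPM, overlapped between the groups. The median of the list was -0.28 without TRAP_Chat replicate 1 and 0.04 without both that library and TRAP_Snap25 replicate 3.

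The release machinery passed in 1 of 44 cases higher and 2 lower, with a median log2 difference of -0.38. Rab3b, a small GTPase of vesicles, was at 320, 405 and 401 CPM against 95.0, 131 and 171 CPM (log2 difference 1.48). Syt13 was lower (-1.88), as was Unc13c (-1.62), a vesicle priming protein. All 3 lost their calls without TRAP_Chat replicate 2 or 3 (edgeR adjusted p from 0.068 to 0.189), which left 0 called, and Unc13c, at 60.6, 94.0 and 26.6 CPM in TRAP_Snap25, lost it in 8 of 19 alternatives.

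Axonal cytoskeleton genes were higher in TRAP_Chat in 5 of 28 cases and lower in none, with a median log2 difference of 0.30. Prph, the intermediate filament of neurons that project outside the central nervous system, was at 587, 683 and 662 CPM against 90.8, 127 and 179 CPM (log2 difference 2.26 ± 0.30, SE, edgeR adjusted p = 0.00144). Sncg, gamma-synuclein, was at 678, 846 and 697 CPM against 175, 151 and 256 CPM (log2 difference 1.91). Both kept their calls and neither overlapped. The neurofilament genes were among the most abundant called. Nefl stood at 8073 ± 1655 against 3096 ± 665 CPM, Nefm at 7980 ± 1461 against 3005 ± 374 CPM, and Nefh at 2106 ± 169 against 884 ± 119 CPM (SD, n = 3). Their log2 differences of 1.36, 1.39 and 1.231 each lost the call without TRAP_Chat replicate 2 or 3 or TRAP_Snap25 replicate 1 or 2 (edgeR adjusted p from 0.0524 to 0.122), while their libraries did not overlap. Nefh also lost it without TRAP_Chat replicate 1 (0.0531). The list count was 2 without each of those first 4 libraries and 8 without TRAP_Snap25 replicate 3. Stmn2 and Map1b, microtubule proteins of growing axons, had log2 differences of 1.01 and 1.25 and did not pass (edgeR adjusted p = 0.0614 and 0.0715), and Ina, an internexin, had -0.95. Of 28 genes of kinesin and dynein transport 0 were called with edgeR, DESeq2 or limma voom, and 1 had an unadjusted p under 0.05. The log2 difference was positive for 24 of them, and their median was 0.21.

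Channel genes went both ways. Of 46 genes of potassium and HCN channels 2 were higher and 3 lower, and the median log2 difference was -0.09. Kcnj14, an inward rectifier of motor neurons, was at 58.4, 40.7 and 70.2 CPM against 11.4, 12.4 and 11.8 CPM (log2 difference 2.23 ± 0.32, SE, edgeR adjusted p = 0.00201), and it kept its call. Kcna6, a delayed rectifier subunit, was at 65.1, 29.8 and 28.4 CPM against 179, 212 and 148 CPM (log2 difference -2.15 ± 0.35, SE, edgeR adjusted p = 0.00378). Without TRAP_Chat replicate 3 its edgeR adjusted p was 0.0533, and without TRAP_Chat replicate 1 and TRAP_Snap25 replicate 3 its log2 difference was -2.75. Kcnmb4, a subunit of large-conductance channels, was higher by 2.65, and 3.44 without TRAP_Snap25 replicate 1, and Kcnc2 (-1.58) and Kcnab3 (-1.50) were lower. These 3 lost their calls without TRAP_Chat replicate 2 or 3 (edgeR adjusted p from 0.0878 to 0.153), so that 1 channel gene was higher and 1 or 0 lower without those libraries. Kcnmb4 also lost it without TRAP_Snap25 replicate 2 (0.0716), Kcnab3 without TRAP_Snap25 replicate 1 (0.062) and Kcnc2 without any 1 library except TRAP_Snap25 replicate 3 (0.0583 to 0.101).

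Kcnk3, the leak channel TASK-1, was at 105, 169 and 235 CPM against 65.7, 22.9 and 76.2 CPM and did not pass (edgeR adjusted p = 0.0571). Among 15 sodium channel genes Scn2b, an accessory subunit, was lower at 82.6, 64.8 and 126 CPM against 272, 244 and 316 CPM (log2 difference -1.62), and it lost its call without TRAP_Chat replicate 2 (edgeR adjusted p = 0.0698). Scn9a, the channel Nav1.7 of sensory and autonomic neurons, was at 10.7, 20.8 and 10.5 CPM against 4.18, 3.01 and 0.813 CPM, which did not pass (log2 difference 2.35, edgeR adjusted p = 0.0532). Of 20 calcium channel genes Cacna1d, the pore of an L-type channel, was higher at 25.4, 34.6 and 32.8 CPM against 9.10, 10.3 and 5.08 CPM (log2 difference 1.896). Its call was lost without TRAP_Chat replicate 2 or 3 or TRAP_Snap25 replicate 1 (edgeR adjusted p from 0.0577 to 0.0943).

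Genes of ion pumps and chloride handling were higher in 4 of 29 cases and lower in none. Clic1, an intracellular chloride channel protein, was at 27.9, 30.2 and 15.7 CPM against 2.06, 2.51 and 1.32 CPM, and its log2 difference of 3.60 ± 0.47 (SE, edgeR adjusted p = 0.00136) was close to that of Slc18a3. Wnk4, a kinase that regulates chloride cotransporters, was at 54.2, 29.4 and 29.4 CPM against 3.60, 1.84 and 5.89 CPM (log2 difference 3.32 ± 0.48, SE, edgeR adjusted p = 0.00195). Both kept their calls. The related Clic4 (0.24), Wnk1 (0.95), Wnk2 (0.42) and Wnk3 (0.19) did not pass in edgeR. Wnk1 passed at a similar log2 difference with DESeq2 (adjusted p = 0.0342), with all 12 libraries in the edgeR fit (0.0359) and with no filter on low counts (0.0405). Fxyd7, a regulator of the sodium-potassium pump, was higher by 1.47 on the log2 scale. It lost its call without TRAP_Chat replicate 2 or TRAP_Snap25 replicate 1 or 2 (edgeR adjusted p from 0.0507 to 0.0789), and the list count was 2 without each of these.

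Calcium-binding proteins split, with 5 of 32 higher and 3 lower. S100a11 was at 29.6, 18.5 and 21.4 CPM against 3.23, 2.62 and 1.93 CPM (log2 difference 3.13 ± 0.44, SE, edgeR adjusted p = 0.00175). S100a10 and its partner Anxa2, which together form a complex at the plasma membrane, had log2 differences of 2.13 and 2.51, at 274 ± 96.6 against 61.4 ± 17.7 CPM and 161 ± 46.2 against 27.9 ± 1.98 CPM (SD). The annexin Anxa5 had 1.98. These 4 kept their calls, and S100b (1.31), better known from glia, lost its call without TRAP_Chat replicate 1 or 3 or TRAP_Snap25 replicate 1 or 2 (edgeR adjusted p from 0.0526 to 0.0749). The lower members were the neuronal buffers and sensors Pvalb, Necab2 (-2.23) and Vsnl1. Necab2 lost its call without TRAP_Snap25 replicate 2 or TRAP_Chat replicate 2 or 3 (edgeR adjusted p from 0.0531 to 0.109), and without each of these 1 member was lower.

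Receptors for transmitters went both ways. Of 12 genes of acetylcholine receptors 2 were lower, Chrna4 and Chrna2. Chrna4, a nicotinic subunit, was at 34.1, 37.1 and 39.3 CPM against 135, 149 and 220 CPM (log2 difference -2.21 ± 0.28, SE, edgeR adjusted p = 0.00134), and it kept its call. Chrna2, the nicotinic subunit of Renshaw cells, which receive input from motor axons, is outside the naming rule. It had 0, 0 and 1 counts in TRAP_Chat against 21, 98 and 37 in TRAP_Snap25, a ratio of 193 for Snap25 over Chat as shares of all counts with a counting interval of 34.1 to 7663, and it lost its call without TRAP_Chat replicate 3 (edgeR adjusted p = 0.0563). Chrm2, the muscarinic receptor at synapses on motor neurons, stood at 110 against 69.8 CPM and did not pass (log2 difference 0.63).

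Of 45 receptors for amines and peptides 2 were higher and 3 lower. Htr1a, a serotonin receptor, was at 1.42, 1.66 and 2.29 CPM against 19.4, 18.01 and 12.3 CPM (log2 difference -3.23 ± 0.48, SE, edgeR adjusted p = 0.0024), and it kept its call. Cckbr, a receptor of cholecystokinin, and Htr2c, another serotonin receptor, were lower by log2 differences of -3.12 and -1.74 and lost their calls without TRAP_Chat replicate 3 (edgeR adjusted p = 0.0734 and 0.0525). The higher ones were Vipr2 and Htr2a. Htr2a, the serotonin receptor that raises motor neuron excitability, was at 43.2, 115 and 52.1 CPM against 23.3, 18.2 and 15.2 CPM (log2 difference 1.86). It lost its call without TRAP_Chat replicate 2 or 3 or TRAP_Snap25 replicate 1 or 2 (edgeR adjusted p from 0.0556 to 0.125). Serotonin receptors thus held members called in each direction.

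Receptors for trophic and TGF-beta family factors were higher in 3 of 34 cases and lower in 1. Amhr2, the receptor of anti-Müllerian hormone, was at 25.6, 25.4 and 20.4 CPM against 2.79, 7.58 and 3.35 CPM (log2 difference 2.35), and Ret, the signalling receptor for glial cell line-derived neurotrophic factor, was at 297, 601 and 391 CPM against 134, 127 and 170 CPM (1.56). Gfra1, its partner, was the other higher member. Erbb4, a receptor of neuregulins, was lower at 5.42 ± 0.587 against 21.5 ± 4.71 CPM (SD, log2 difference -2.01). All 4 lost their calls without TRAP_Snap25 replicate 1 or TRAP_Chat replicate 2 or 3 (edgeR adjusted p from 0.058 to 0.176), and the list count was then 0. Of 25 glutamate receptor genes 0 were called with edgeR or limma voom and 1 with DESeq2, and 4 had an unadjusted p under 0.05.

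Matrix, adhesion and guidance genes gave few calls. Hapln1, a link protein of perineuronal nets, was 1 of 28 matrix genes and the only one called, at 6.42, 2.27 and 4.63 CPM against 70.0, 36.3 and 66.5 CPM (log2 difference -3.71 ± 0.44, SE, edgeR adjusted p = 0.00131), and it kept its call. Its relative Hapln4 stood level, with a log2 difference of -0.03 at 231 against 232 CPM. Slit3, an axon guidance ligand, was called higher among 47 guidance genes (1.79), and Cdh22 among 29 cadherins (1.64). Both lost their calls without TRAP_Chat replicate 2 or 3 or TRAP_Snap25 replicate 1 (edgeR adjusted p from 0.0837 to 0.204).

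Immediate early and stress-response genes were higher in 2 of 24 cases and lower in 1. Hspb1 and Hspb8, small heat shock proteins whose mutations cause inherited motor neuropathies, were at 96.3, 91.9 and 86.5 CPM against 11.01, 16.3 and 23.3 CPM and at 429, 629 and 500 CPM against 105, 112 and 134 CPM. Their log2 differences were 2.42 ± 0.33 and 2.13 ± 0.27 (SE, edgeR adjusted p = 0.00155 and 0.00131), and both kept their calls with no overlap. Egr1, an activity-induced transcription factor, was at 51.1, 40.6 and 32.1 CPM against 139, 124 and 303 CPM (log2 difference -2.21) and lost its call without TRAP_Chat replicate 3 (edgeR adjusted p = 0.0637). Fos had a log2 difference of -0.53 at 12.1 against 17.3 CPM, and Jun 1.25 at 71.3 against 29.6 CPM, and neither passed. Of 34 genes linked to amyotrophic lateral sclerosis Prph and Nefh were higher and Erbb4 lower, with the values above, and the median was 0.07.

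The genes with the largest differences also held some with no list of their own. Vdr, the vitamin D receptor, was at 51.7, 48.5 and 52.3 CPM against 4.11, 2.01 and 13.9 CPM (log2 difference 2.93 ± 0.56, SE, edgeR adjusted p = 0.0108), and 4.07 without TRAP_Snap25 replicate 3. Its call was lost without TRAP_Snap25 replicate 1 or TRAP_Chat replicate 3 (edgeR adjusted p = 0.0707 and 0.0767). Prss12, a serine protease of synapses, was at 31.7, 31.0 and 37.1 CPM against 5.50, 3.62 and 3.96 CPM (log2 difference 2.91), and Tns1, an adaptor of focal adhesions, was at 363, 554 and 722 CPM against 71.3, 50.5 and 121 CPM (2.73). These 2 kept their calls. Cand2 (2.87) and Tcea3 (2.97), the latter a transcription elongation factor, lost theirs without TRAP_Snap25 replicate 1 or TRAP_Chat replicate 3 (edgeR adjusted p from 0.0518 to 0.0918), and Tcea3 also without TRAP_Chat replicate 1 or 2 (0.0576 and 0.0589).

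On the lower side Nrn1, a membrane-anchored factor that promotes neurite growth, was at 19.1, 8.61 and 20.4 CPM against 219, 118 and 167 CPM (log2 difference -3.40 ± 0.38, SE, edgeR adjusted p = 0.00131). Fbxo40 (-3.85), Strip2 (-3.27), Tnnt2 (-3.23), which encodes cardiac troponin T, and Kank4 (-3.13) were lower at levels of 11.9 to 23.9 CPM in TRAP_Snap25, and Strip2 was at -3.87 without TRAP_Chat replicate 2. Lhx1os, an antisense transcript beside the inhibitory interneuron gene Lhx1, was at 5.37, 3.32 and 2.24 CPM against 30.5, 41.2 and 16.8 CPM (log2 difference -3.04), and its reads cannot be told from those of an overlapping gene where strand is unknown. All 6 kept their calls, and no library of TRAP_Chat reached the lowest of TRAP_Snap25.

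**Figure D4:**
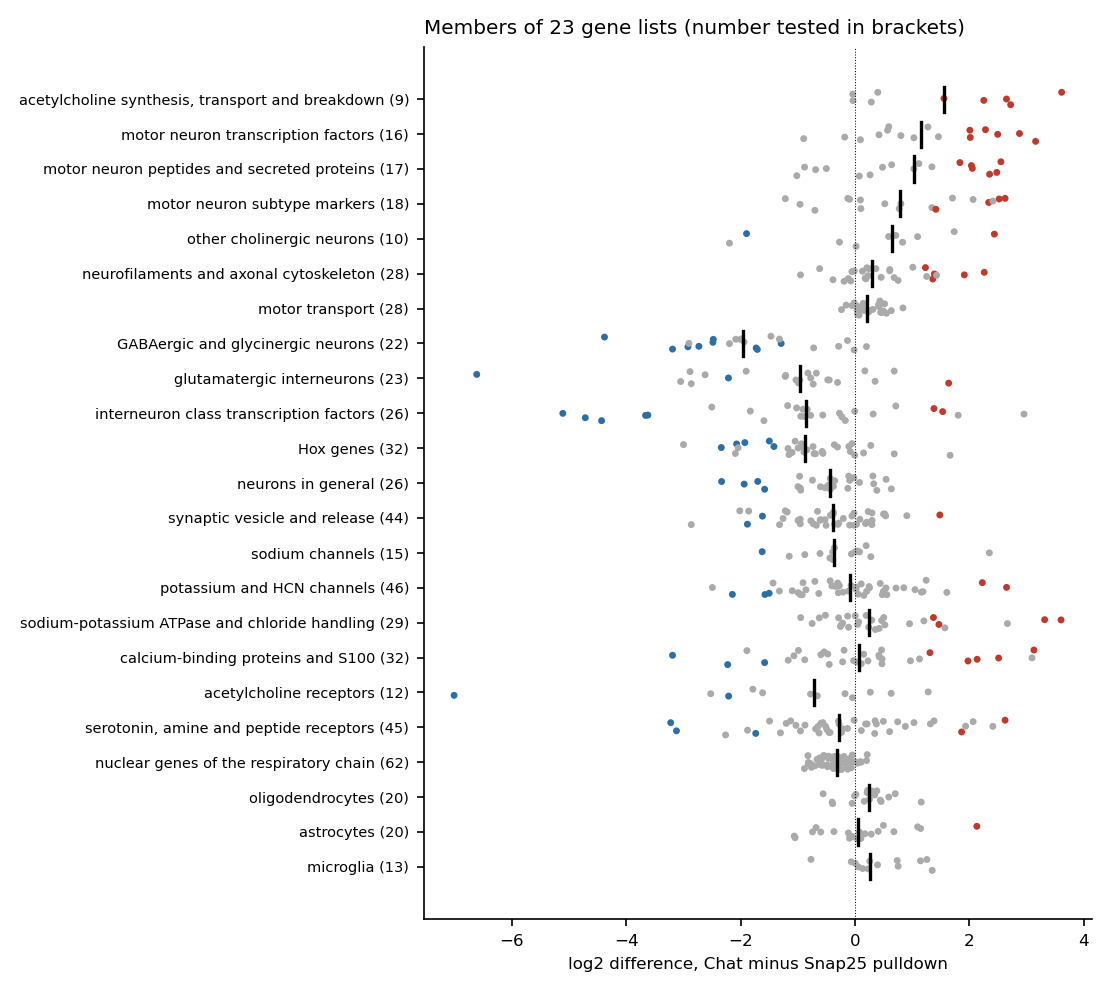
Each row is a gene list and each point 1 tested member, placed by its log2 difference, TRAP_Chat minus TRAP_Snap25, with red for members called higher, blue for members called lower and grey for the rest; the black bar is the median. The acetylcholine list has its median at 1.55 and the inhibitory neuron list at -1.97. Motor transport and the respiratory chain form narrow clouds with medians of 0.21 and -0.32 and 0 called members in edgeR.

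Markers of the glia of the cord gave 1 call, in the astrocyte list described below, and Schwann cells, the glia of peripheral nerve, gave another. Of 20 oligodendrocyte, 13 precursor and 13 microglial markers 0 were called with edgeR, DESeq2 or limma voom and 0 had an unadjusted p under 0.05, with medians of 0.25, 0.28 and 0.26. Mbp, a main protein of myelin, stood at 2353, 635 and 1092 CPM in TRAP_Chat and at 794, 660 and 1998 CPM in TRAP_Snap25, so that the highest library of each group reached a similar level. Summed over the list, oligodendrocyte RNA was at 29.0%, 10.9% and 16.01% of the input mean of its line in TRAP_Chat and at 11.9%, 9.27% and 27.1% in TRAP_Snap25. For microglia the shares ran from 17.8% to 28.8% and from 11.6% to 24.8%, and for astrocytes from 32.8% to 48.3% and from 37.3% to 64.1%. The oligodendrocyte median was -0.26 without TRAP_Chat replicate 1 and 0.85 without TRAP_Snap25 replicate 3, and 0 markers were called either way.

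Of 20 astrocyte markers Sox9 was called, at 15.6, 8.15 and 13.2 CPM against 3.01, 3.23 and 2.03 CPM (log2 difference 2.13), but in 9 of 19 alternatives it was not, among them every fit that left out 1 library (edgeR adjusted p from 0.0542 to 0.162). Aqp4 and Gfap, defining genes of astrocytes, had log2 differences of 0.03 and 0.10. Of 20 vessel markers Itm2a was called (1.42), and without any 1 library except TRAP_Snap25 replicate 3 it was not (edgeR adjusted p from 0.0639 to 0.185). Pmp22, a myelin protein of Schwann cells that neurons also make, was the 1 of 8 Schwann cell markers called, at 977, 919 and 941 CPM against 295, 202 and 253 CPM (log2 difference 1.896 ± 0.27, SE, edgeR adjusted p = 0.00177), and kept its call. Summed Schwann cell RNA was at 63.5% to 79.1% of the input in TRAP_Chat and at 22.9% to 39.5% in TRAP_Snap25, and its part in the result for Pmp22 was not tested. The sensory neuron list had 4 of 12 called, all genes that motor neurons share (Isl1, Calca, Prph and Ret), with a median log2 difference of 1.65. The log2 difference was positive for 8 of the 12, and 7 were higher and 1 lower at an unadjusted edgeR p under 0.05. Summed with the called genes included, the list was at 605.3% to 814.5% of the input in TRAP_Chat and at 175.6% to 270.8% in TRAP_Snap25. The sensory factor Pou4f1 stood at 2.99 against 5.55 CPM and did not pass. Any part of sensory neuron RNA in this rise was not tested. Of 11 markers of meningeal fibroblasts 0 were called with edgeR or limma voom and 2 with DESeq2, and 4 had an unadjusted p under 0.05 (median log2 difference 0.78).

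Mitochondrial and ribosomal genes gave no calls. Of 9 genes of the mitochondrial genome 0 passed in edgeR, DESeq2 or limma voom, 2 had an unadjusted p under 0.05, and their median was 1.13, which was -1.11 without TRAP_Chat replicate 1. Summed, they were at 22.2%, 1.16% and 1.18% of the input in TRAP_Chat and at 1.53%, 0.470% and 1.36% in TRAP_Snap25, so that TRAP_Chat replicate 1 stood above the other 5 and set the sign. Of 62 nuclear genes of the respiratory chain 57 had a negative log2 difference (median -0.32). With edgeR and limma voom 0 passed, with DESeq2 1, and 10 had an unadjusted p under 0.05, and in the inputs their median was -0.26. Of 62 cytosolic ribosomal protein genes 0 passed with edgeR, DESeq2 or limma voom and 0 had an unadjusted p under 0.05, and their median was 0.07.

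**Figure D5:**
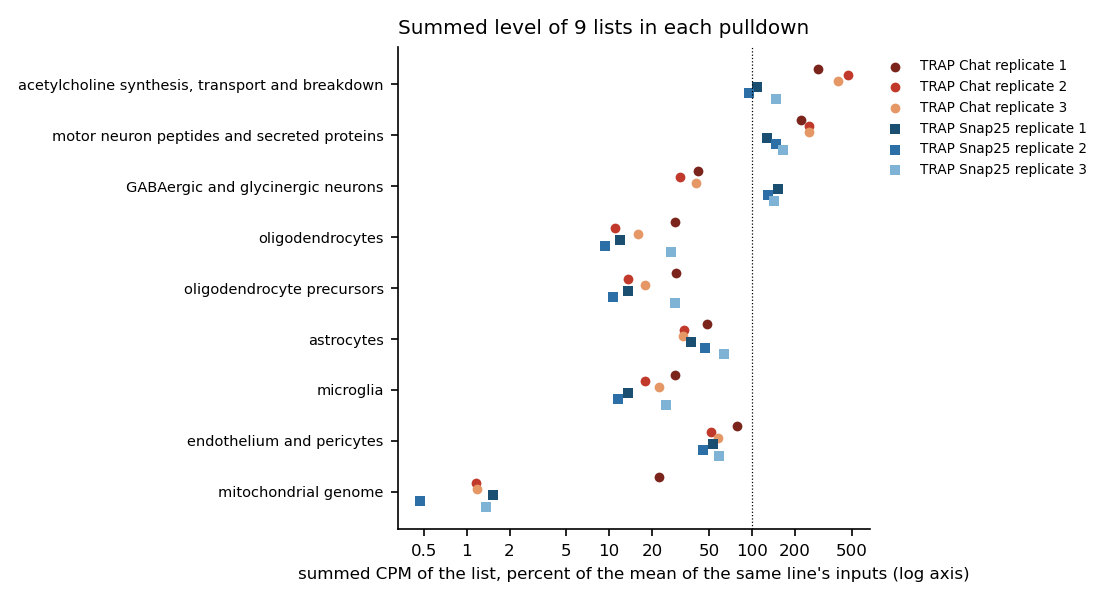
The summed level of 9 gene lists in each pulldown is plotted as a percent of the mean of the same line's inputs on a log axis, with circles for TRAP_Chat and squares for TRAP_Snap25. Acetylcholine genes lie at 292% to 473% in TRAP_Chat and 95.2% to 148% in TRAP_Snap25, glial lists of both pulldowns mix below 100%, and TRAP_Chat replicate 1 stands apart for the mitochondrial genome at 22.2%.

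The inputs of the lines, which show what differed before the pulldown, held 0 called genes of 15125 tested with edgeR (0%), and 532 had an unadjusted p under 0.05. DESeq2 called 5 and limma voom 2. Of the 382 genes called between the pulldowns 371 were also tested in the inputs, 3 of which differed there over 2-fold in the same direction (Slc18a3, Ercc6 and the predicted gene Gm2990), and 0 did so in the opposite direction. Over the called genes the median absolute log2 difference in the inputs was 0.17, against 0.20 over all genes tested there, and the median in the direction of the call was 0.07. Slc18a3 was at 181, 167 and 202 CPM in PreIP_Chat and at 65.1, 22.9 and 64.0 CPM in PreIP_Snap25, a log2 difference of 1.83 ± 0.31 (SE, edgeR adjusted p = 0.0815). Ercc6, a DNA repair gene and the neighbour of Chat upstream of its start, was at 44.1, 39.2 and 52.3 CPM in PreIP_Chat and at 17.8, 21.2 and 14.6 CPM in PreIP_Snap25 (log2 difference 1.32, edgeR adjusted p = 0.0815). In the pulldowns Ercc6 was at 45.6, 47.1 and 61.3 CPM against 14.2, 11.2 and 13.9 CPM (log2 difference 1.95 ± 0.31, SE, edgeR adjusted p = 0.0035). For both genes the libraries of the lines did not overlap before or after the pulldown. Ercc6 was chosen after its values were seen.

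The difference between the pulldowns was set against that between the inputs in a fit of all 12 libraries, with 1 mean per group and no pairing of each pulldown with its input. The pulldown difference exceeded that of the inputs for 96 genes and fell below it for 70, 166 of 15905 tested or 1.04%, with 0.604% higher and 0.440% lower (edgeR). With total counts in place of TMM factors the split was 54 and 67. Leaving out 1 library gave from 26 and 26 without PreIP_Chat replicate 2 to 152 and 97 without TRAP_Snap25 replicate 3, and without any 1 of the other 5 inputs from 46 to 72 above and from 38 to 46 below. Of the 382 genes called between the pulldowns 155 were among them. Chat (log2 change in difference 2.21), Slc5a7 (2.56), Uts2 (2.46) and Prph (2.26) passed, as did Slc32a1 (-3.04), Slc17a6 (-2.23) and Npy (-4.45). Slc18a3 did not (1.78 ± 0.70, SE, edgeR adjusted p = 0.312), nor did Ercc6 (0.63, adjusted p = 0.532), Isl1 (3.08, adjusted p = 0.0685) or Otp (-4.31, adjusted p = 0.0513). In the labels each pulldown shares a code with 1 input of its line. With those pairs in the fit 118 genes lay above and 88 below, and 151 of the 166 called without pairs were among them. Slc18a3 then passed (1.995 ± 0.42, SE, edgeR adjusted p = 0.0342), as did Otp (-4.24, adjusted p = 0.0348) and Mnx1 (2.79, adjusted p = 0.0362, against 0.0523 without pairs). Isl1 (adjusted p = 0.0577) and Ercc6 (0.562) did not, and Nts (0.0574) no longer passed.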

How the data were processed

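The authors deposited raw read counts per Ensembl gene from libraries made with a Nugen Ovation kit, per the labels' protocols. The submitters' processing notes name STAR and HTSeq. Versions, build, annotation and strand handling were not given in the sources used here. Of 41736 lines, 824 exact repeats were dropped, and 18133 of 40912 genes had no count in any pulldown. Columns were matched to libraries by the names in the labels.

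The counts were tested with edgeR 4.0.16 in R 4.3.3 (TMM factors, filterByExpr by group, glmQLFit and glmQLFTest, two-sided) on the 6 libraries compared, with DESeq2 1.42.0 and limma 3.58.1 voom among the alternatives. The interaction used all 12 libraries. CPM in the text use TMM factors of all 12 libraries. The steps were run on counts simulated with known differences and the spread fitted to these libraries. Such counts hold no library with more RNA of other cells, so that case was not tested.

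Genes were named by rule: the targeted genes, the 12 largest rises and falls among called genes of known symbol with at least 5 CPM and no overlap, and up to 3 called members per list and direction with at least 2 CPM. List members that did not pass, and En1, Slc6a5, Gad1, Gad2, Pax2, Rgs8, Penk, Prima1, Acly, Bcl6, Isl2, Lhx4, Calcb, Nrg1, Nefl, Anxa5, S100b, Hoxa9 and Hoxb7, were picked with their values in view. Some list members are counted but not reported by name here. The comparison, lists and tests were chosen with earlier results of these data known. The table of promoter sequences is RefSeq's (GRCm38.p6), matched by symbol.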

Additional observations from a re-analysis of the deposited data

Results flagged for a closer look

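The genes below had a log2 difference between the pulldowns that departed from that between the inputs of the same lines, by edgeR's interaction test over all 12 libraries with Benjamini-Hochberg adjustment. The values are the pulldown difference minus the input difference, on the log2 scale. In all, 96 genes lay above and 70 below. With each pulldown paired with its input, Nts no longer passed (edgeR adjusted p = 0.0574).

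Among cholinergic and motor neuron genes it was 2.21 for Chat, 2.56 for Slc5a7, 2.38 for Slc10a4, 2.51 for Creb5, 2.42 for Chodl and 2.23 for Vipr2. For Creb5, TRAP_Chat stood near its input, at 32.1 against 29.7 CPM, and TRAP_Snap25 below its own, at 5.56 against 29.8 CPM. The peptide genes stood at 2.46 for Uts2, 2.69 for Uts2b, 2.21 for Cartpt and 2.31 for Calca. The cytoskeletal genes were at 2.26 for Prph, 1.82 for Sncg and 1.87 for Nefm. The channel gene Kcnj14 was at 2.79, and the chloride genes Clic1 and Wnk4 at 3.97 and 3.40. For calcium-binding and stress genes it was 3.52 for S100a11, 2.33 for S100a10, 2.27 for Anxa2, 2.48 for Hspb1 and 1.95 for Hspb8. Prss12, Tns1, Nts and Nfia were at 2.49, 2.45, 2.27 and 1.61.

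Lower in this sense were the interneuron genes Dmrt3 at -5.34, Npy at -4.45, Tal1 at -4.33, Slc32a1 at -3.04, Pvalb at -2.89 and Slc17a6 at -2.23. Receptor genes were at -3.44 for Cckbr, -2.71 for Htr1a, -2.41 for Chrna4, -1.83 for Erbb4 and -1.81 for Htr2c. Hoxb8 and Hoxb9 were at -2.22 and -2.04, Necab2 at -2.42 and Nsg2 at -1.52. Fbxo40 was at -4.20, Strip2 at -3.66, Hapln1 at -3.35, Nrn1 at -3.33, Kank4 at -3.33 and Tnnt2 at -2.62. Groups of 3 libraries were too small for a test of outlying libraries.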

How the results depend on the processing

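Between the pulldowns, 237 higher and 145 lower genes became 510 and 323 with no filter on low counts, 526 and 360 with DESeq2, and 632 and 441 with all 12 libraries in the fit. Without TRAP_Chat replicate 1 and TRAP_Snap25 replicate 3, an alternative added after the data were seen, 396 were higher and 203 lower. Without the genes that collect ribosomal RNA reads, an alternative added in the same way, 255 were higher and 138 lower. Leaving out 1 library gave 87 to 366 higher and 45 to 198 lower. Without both TRAP_Chat replicate 1 and TRAP_Snap25 replicate 3, Nts and Tcea3 lost their calls (edgeR adjusted p = 0.0628 and 0.0622). In that fit the log2 differences were 3.39 for Tns1, 3.53 for Cand2, 3.11 for Lhx4 and 2.27 for Cdh22. Those of Mpped2 and Lhx1os were -2.59 and -3.70. Between the inputs, with 0 called in edgeR, total counts gave 16 higher and 1 lower, no filter 28 and 8, DESeq2 5 higher, limma voom 2 higher, and leaving out 1 library 0 to 3 higher and 0 to 1 lower. The interaction, at 96 and 70, gave 54 higher with total counts, 269 and 184 with no filter, 292 and 209 with DESeq2, 106 lower with limma voom, and 26 to 152 higher and 26 to 97 lower without 1 library. The cause of these shifts was not tested.

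Replicate numbers were not used to pair the lines, because same-numbered pulldowns of both lines deviated together with correlations of only 0.026, 0.036 and 0.080, although each correlated best with its own number. In the labels TRAP_Chat replicate 2 and TRAP_Snap25 replicate 1 share a code whose meaning is not given, and their deviations correlated at -0.00196. Between the lines, the replicate block pairs by number and not by that code. With a replicate block 253 genes were higher and 162 lower between the pulldowns, 1 was higher between the inputs, and the interaction, with each pulldown paired with the input that shares its code, gave 118 and 88. Deviations of pulldown and paired input correlated at 0.0601, 0.102 and 0.127 in the Chat line and at -0.0366, 0.167 and 0.147 in the Snap25 line, where replicates 1 and 3 correlated better with another input. Over 85 named genes and up to 19 alternatives, 1469 of 1615 results kept their direction and side of the threshold, 143 no longer passed, 3 newly passed and 0 changed sign. Of those 143, 128 came from leaving out 1 library. Depth limits genes such as Dmrt3, Trh and Chrna2, whose counts in TRAP_Chat were 0 to 8 per library.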

Other observations

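Gene families grouped after the values were seen, and therefore given as description only, showed members of several called together. Small heat shock proteins with their co-chaperone Bag3 had 5 of 7 members higher in TRAP_Chat. Beside Hspb1 and Hspb8 these were Bag3, at 296 ± 100.4 against 70.4 ± 42.5 CPM (SD, n = 3 per group), Cryab, at 308 ± 87.5 against 88.5 ± 43.8 CPM, and Hspb6, at 426 ± 101.3 against 138 ± 32.3 CPM. Their log2 differences were 2.05, 1.78 and 1.605, and each lost its call in edgeR without TRAP_Snap25 replicate 1, Bag3 and Cryab also without TRAP_Chat replicate 2 or 3, and Cryab without TRAP_Snap25 replicate 2 (edgeR adjusted p from 0.053 to 0.108). Without TRAP_Snap25 replicate 3 the log2 difference of Bag3 was 2.68. In the inputs Cryab stood above every pulldown, at 547 ± 84.6 CPM in PreIP_Chat and 559 ± 137 CPM in PreIP_Snap25 (SD). Bag3 and Hspb6 stood at 86.6 and 73.1 CPM in PreIP_Chat and at 70.6 and 57.7 CPM in PreIP_Snap25. Of 5 annexins tested, which bind membranes in the presence of calcium, Anxa2, Anxa4 and Anxa5 were higher. Anxa4 lost its call without TRAP_Chat replicate 3 or TRAP_Snap25 replicate 1 (edgeR adjusted p = 0.0812 and 0.0632), and Anxa6 and Anxa7 did not pass at log2 differences of 0.97 and 0.85. Without TRAP_Snap25 replicate 3 Anxa6 was higher by 1.79 (edgeR adjusted p = 0.00507), and by 1.945 (0.00282) without TRAP_Chat replicate 1 as well. With no filter on low counts it passed at 0.98 (0.0344), and Anxa7 passed with all 12 libraries in the fit (0.88, adjusted p = 0.0472).

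Calcium/calmodulin-dependent kinases and their relatives went the other way, with 5 of 14 lower and 0 higher in edgeR. Camk4, Camkk2, Camk1g, Camk2a and Pnck had log2 differences of -1.67, -1.52, -1.50, -1.49 and -1.22, and each lost its call without TRAP_Chat replicate 3 (edgeR adjusted p from 0.0738 to 0.231). Pnck, at an edgeR adjusted p of 0.0499 in the main fit, lost its call in 10 of 19 alternatives, among them every fit without 1 library. Camk4 and Camkk2 lost theirs in 5 of 19, Camk2a in 3 and Camk1g in 2. Camk2b, Camk2d and Camk2g, other subunits of the abundant kinase CaMKII, were at -0.21, -0.35 and -0.16 and did not pass.

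Of the synucleins, Sncg was higher, as described above, whereas Sncb, beta-synuclein, was at 62.7, 86.5 and 46.7 CPM in TRAP_Chat and at 283, 193 and 304 CPM in TRAP_Snap25, a log2 difference of -2.02 (edgeR adjusted p = 0.0025). Fgf1, an acidic fibroblast growth factor, was at 1353, 2031 and 2475 CPM against 504, 421 and 426 CPM, a log2 difference of 2.09 (edgeR adjusted p = 0.00188), while its input levels of 373 ± 39.1 and 349 ± 46.6 CPM overlapped. Both Sncb and Fgf1 kept their calls in all alternatives.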
